A study of Drosophila melanogaster with 9 samples.

Results

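The genes zen, zen2, tup, ush, pnr and srp encode transcription regulators of the amnioserosa and dorsal ectoderm of the fruit fly Drosophila melanogaster. They were taken by symbol from the first column of the deposited expression matrix, which held all 6 of them among 15334 genes. Whole-embryo RNA came from 3 groups of 3 libraries. OreR is the wild-type Oregon-R strain. The embryos named obe1/obe2 had mothers with the allele obe1 on one chromosome and obe2 on the other, mated to obe2/+ fathers. The embryos named obe2/Df had mothers with obe2 over Df, the fly notation for a chromosomal deletion, and again obe2/+ fathers. Group names therefore give the mothers' genotype, and embryos within a library can differ in their own. What each allele changes and how far Df reaches were not stated. The mutated gene, obe (CG5205 or obelus), codes for an RNA helicase of the Ski2 family. About 50 embryos went into a library, 3 h old and between late stage 5 and early stage 6, around the start of gastrulation.

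The dorsal side of the fly blastoderm is set by exclusion and by a signal. The maternal factor Dorsal enters ventral nuclei and represses zen and dpp there, and the BMP ligands Dpp and Screw, moved and freed by Sog, Tsg and Tolloid, then signal most strongly along the dorsal midline. Cells at that peak become amnioserosa, a thin extraembryonic sheet, and the cells beside it become dorsal ectoderm. The gene zen encodes a homeodomain protein needed for the amnioserosa, and zen2 is its neighbouring duplicate in the Antennapedia complex. The gene tup encodes a LIM homeodomain protein of the Islet class, and ush a zinc finger protein of the FOG family that binds GATA factors. Both tup and ush are needed to keep the amnioserosa and for germ band retraction. The genes pnr and srp encode GATA factors, pnr acting in dorsal ectoderm and srp best known in endoderm, fat body and blood cell precursors.

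Levels are given in normalized counts, which are read counts divided by a size factor for each library. Changes are log2 fold changes ± SE on log2(normalized count + 1), from a limma fit across the 8346 genes whose 9 libraries averaged 10 normalized counts or more. All 6 genes passed that minimum. A gene is called where its Benjamini-Hochberg adjusted p over the 8346 genes was under 0.05. Recovered reads per library ranged from 61007517 to 123121486. As a check of the labels, obe RNA stood at 7056 ± 1381 in OreR against 731 ± 79.7 (obe1/obe2) and 235 ± 47.8 (obe2/Df), each a mean ± SD of 3 libraries, and all means below are given in that form. On the first principal component of all tested genes the obe2/Df replicate 1 library lay at 108.5. The other obe2/Df libraries lay at 47.5 and 49.8. For obe2/Df the count of the 6 genes called, the list counts and the changes of zen, zen2, pnr and tup are therefore also given without replicate 1. The values of that library are named where single libraries are shown. In RNA of whole embryos, fewer cells of a type and less RNA per cell cannot be told apart, and the place of expression was not measured, so the label of these genes rests on their known roles.

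In obe2/Df the 6 genes did not move together. The RNA of zen, zen2 and pnr was lower than in OreR and that of srp was higher, while ush and tup did not pass the test. That is 4 of 6 called, where 60.5% of all tested genes were called, 3 of 6 lower against 29.5% of all genes and 1 of 6 higher against 31% of all genes. By ranges, 4 of 6 did not overlap with OreR, where 70.5% of all genes did not, 3 of them lower (34.3% of all genes) and 1 higher (36.2% of all genes). These shares are not far from those of the whole table. Without obe2/Df replicate 1, 2 of 6 were called, zen and zen2, both lower. There 50.1% of all genes were called (24.8% lower and 25.4% higher). In obe1/obe2, 0 of 6 passed the limma test, where 22.6% of all genes did (11.7% lower and 11% higher), and 0 of 6 had an unadjusted p under 0.05, against 37.1% of all genes. The ranges of 0 of 6 were separate from OreR there, against 37.3% of all genes (20.2% lower and 17.1% higher). The edgeR and DESeq2 count tests on the recovered reads also called 0 of 6 in obe1/obe2, against 21.7% and 24% of the genes they tested. A limma fit of the OreR and obe1/obe2 libraries alone also called 0 of 6, against 1341 of 8335 genes. Between the mutant groups 2 of 6 were called, zen and zen2, both lower in obe2/Df, where 44.7% of all genes were called (19.5% lower and 25.2% higher). There 3 of 6 had separate ranges, 2 lower and 1 higher, against 59.8% of all genes (29.2% lower and 30.7% higher).

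**Figure D1:**
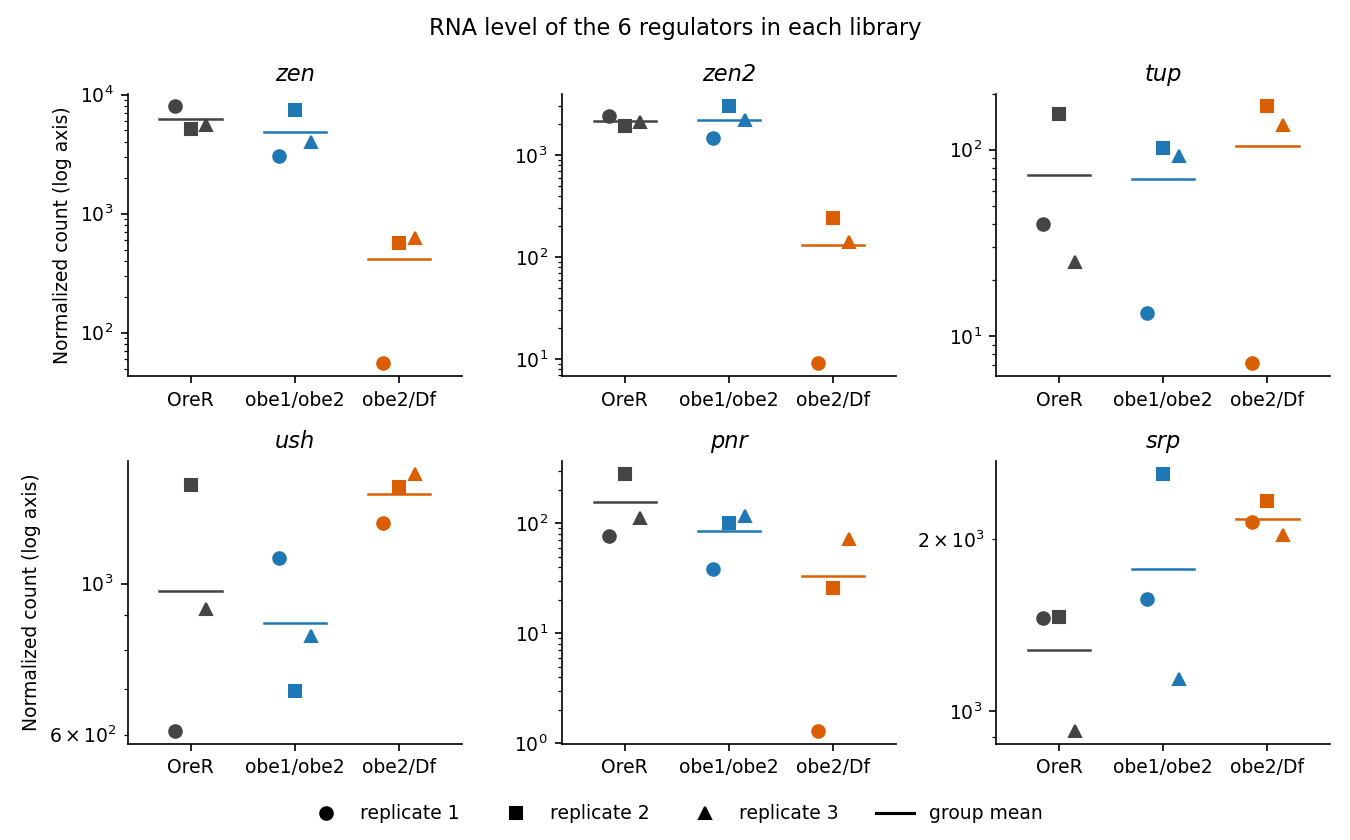
Normalized count (log axis) of each gene in each of the 9 libraries, by group, with a horizontal line at the group mean and marker shapes for replicates 1 to 3. The zen and zen2 values of obe2/Df lie below all other libraries, obe2/Df replicate 1 is the lowest library for zen, zen2, tup and pnr, and srp is above every OreR library in all 3 obe2/Df libraries.

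The homeobox gene zen was at 7969, 5190.0 and 5503 normalized counts in OreR replicates 1 to 3. In obe1/obe2 it was at 3022, 7434 and 4027. In obe2/Df it was at 55.3, 571.5 and 629.8. The OreR and obe1/obe2 ranges overlapped, and every obe2/Df library was below every library of the other groups. The mean of 6221 ± 1522 in OreR against 419 ± 316 in obe2/Df is 14.9-fold lower. The log2 fold change averages log2 values, unlike that ratio of means. It was -4.48 ± 0.82 (limma adjusted p = 0.00222), and 1.35% of tested genes had a value as low or lower. Without obe2/Df replicate 1 it was -3.35 ± 0.34 (adjusted p = 0.000365). In obe1/obe2 the change was -0.44 ± 0.82 (adjusted p = 0.727), with a 95% interval from -2.31 to 1.43. That SE is pooled over the 3 groups. A fit of the OreR and obe1/obe2 libraries alone gave -0.44 ± 0.32 (limma adjusted p = 0.366). The test between the mutant groups also called zen, at -4.04 ± 0.82 in obe2/Df relative to obe1/obe2 (adjusted p = 0.00547).

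The duplicate zen2 was less abundant and followed a similar course. Its libraries held 2415, 1921 and 2109.7 normalized counts in OreR and 1447, 2984 and 2177 in obe1/obe2. In obe2/Df they held 9.11, 241 and 140.5. The lowest of these rests on 14 reads, whose exact Poisson 95% interval runs from 4.98 to 15.3 normalized counts and covers counting error only. The obe2/Df libraries were again below all others, and the obe1/obe2 libraries lay on both sides of the OreR range. The change in obe2/Df was -4.93 ± 0.98 (adjusted p = 0.00316), a mean of 130.4 ± 116.5 against 2149 ± 249, and 0.779% of tested genes had a value as low or lower. Without obe2/Df replicate 1 it was -3.53 ± 0.32 (adjusted p = 0.000231). In obe1/obe2 it was -0.02 ± 0.98 (adjusted p = 0.992), with a 95% interval from -2.26 to 2.22. Fitted on the OreR and obe1/obe2 libraries alone, the SE was 0.25 (limma adjusted p = 0.967). Against obe1/obe2 the obe2/Df change was -4.91 ± 0.98 (adjusted p = 0.00509).

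The GATA gene pnr was far less abundant. OreR libraries held 77.6, 282 and 112 normalized counts, and obe1/obe2 libraries 38.3, 101 and 116. The obe2/Df libraries held 1.3, 25.7 and 72.8. The first obe2/Df value is 2 reads, with an exact Poisson 95% interval from 0.158 to 4.7 normalized counts, in the deepest library of the series. The highest obe2/Df library was just below the lowest OreR library, and 1 obe1/obe2 library lay within the obe2/Df range. The change in obe2/Df was -3.04 ± 1.14 (adjusted p = 0.0445), the mean falling from 157 ± 109.7 to 33.3 ± 36.35. Its 95% interval ran from -5.63 to -0.45. The call rests on the choice of libraries and model, since the change was -1.62 ± 0.71 without obe2/Df replicate 1 (adjusted p = 0.0861), -2.51 without OreR replicate 2 (adjusted p = 0.133) and -2.25 with edgeR (adjusted p = 0.0874). In obe1/obe2 it was -0.81 ± 1.14 (adjusted p = 0.637) and between the mutant groups -2.23 ± 1.14 (adjusted p = 0.14).

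The second GATA gene, srp, went the other way. Its OreR libraries held 1458, 1459 and 923 normalized counts and its obe1/obe2 libraries 1569, 2605 and 1138. The obe2/Df libraries held 2146, 2337 and 2033. All 3 obe2/Df libraries were above all OreR libraries and close to each other, and obe1/obe2 spanned from inside the OreR range to above the obe2/Df range. In obe2/Df the mean was 2172 ± 154 against 1279.9 ± 309, a change of 0.79 ± 0.29 (adjusted p = 0.0421), and 20.9% of tested genes had a value as high or higher. The call is marginal. It was lost when any of the OreR or obe2/Df libraries was left out (0.57 without OreR replicate 3, adjusted p = 0.14) and after quantile normalization (0.50, adjusted p = 0.154). In obe1/obe2 the change was 0.41 ± 0.29 (adjusted p = 0.335), and between the mutant groups 0.38 ± 0.29 (adjusted p = 0.315).

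The FOG-family gene ush did not pass in any comparison. The OreR libraries had 608, 1398 and 919 normalized counts, and those of obe1/obe2 had 1089, 697 and 838. In obe2/Df it was at 1228, 1388 and 1450.1. The obe2/Df libraries lay within 1.18-fold of each other and above all obe1/obe2 libraries, while OreR replicate 2 lay among them. Its change was 0.55 ± 0.29 in obe2/Df (adjusted p = 0.123, 95% interval -0.10 to 1.21), -0.10 ± 0.29 in obe1/obe2 (adjusted p = 0.831) and 0.65 ± 0.29 between the mutant groups (adjusted p = 0.0941). Without OreR replicate 2 the obe2/Df change was 0.85 (adjusted p = 0.0208), and the difference between the mutant groups passed without OreR replicate 1 (adjusted p = 0.0433) and without OreR replicate 2 (adjusted p = 0.0442).

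The LIM homeobox gene tup had the largest residual SD of the 6 over all 3 groups. Its OreR values were 39.98, 155 and 25.1 normalized counts and its obe1/obe2 values 13.4, 103 and 92.01. In obe2/Df it was at 7.16, 171 and 136. Each group had at least 1 low and 1 high library and the 3 ranges overlapped throughout. The change was 0.07 ± 1.27 in obe2/Df (adjusted p = 0.967), with a 95% interval from -2.82 to 2.96, and -0.09 ± 1.27 in obe1/obe2 (adjusted p = 0.969). Differences of several fold in either direction were therefore not detectable for tup. Without obe2/Df replicate 1, whose value is 11 reads, the obe2/Df change was 1.48 ± 0.97 (adjusted p = 0.226), and without obe2/Df replicate 2 it was -0.72 (adjusted p = 0.669).

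**Figure D2:**
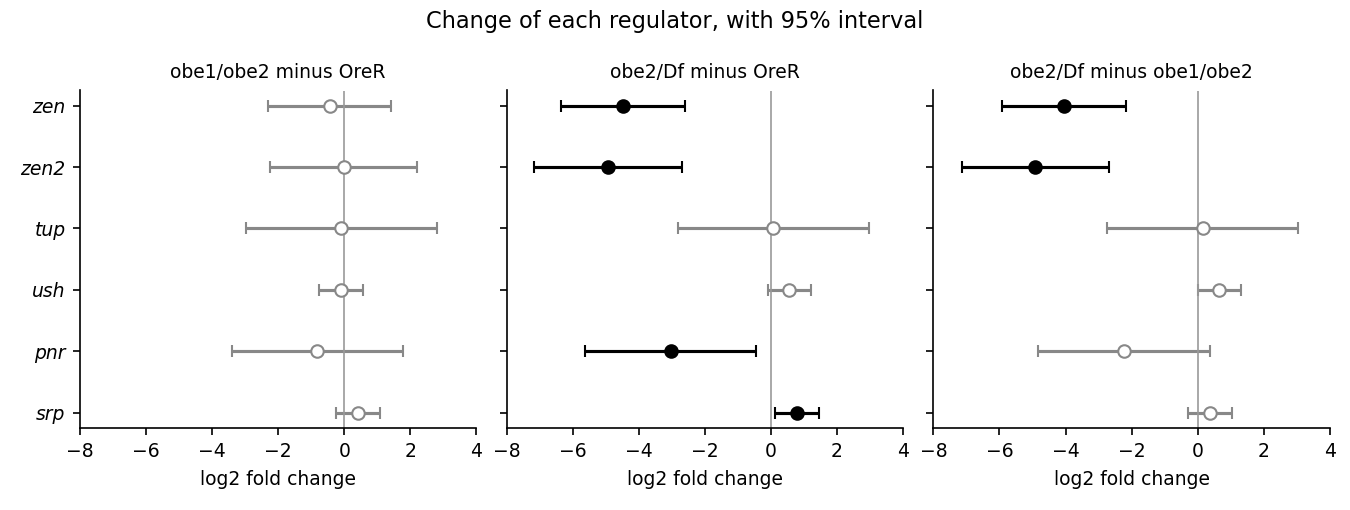
Log2 fold change of each gene in the 3 comparisons, with bars for the 95% interval, filled black where the adjusted p was under 0.05. For obe1/obe2 against OreR every interval includes 0, and for obe2/Df the intervals of zen and zen2 end below -2.6 while that of tup spans 0 by more than 2.8 on each side.

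The spread between replicates set how far these levels could be compared. The residual SD on the log2 scale was 1.86 for tup, 1.66 for pnr, 1.45 for zen2 and 1.22 for zen, against a median of 0.186 over tested genes, and 94.9% to 98.2% of genes had a smaller residual SD than these 4. For srp (0.415) and ush (0.4) it was 77.3% and 76.3%. In obe2/Df replicate 1 the log2 difference from the OreR mean was -6.76 for zen, -7.73 for zen2, -5.89 for pnr and -2.75 for tup. Within OreR, replicate 2 held the highest tup, pnr and ush values and the lowest zen and zen2 values. Within obe1/obe2, replicate 2 held the highest zen, zen2, tup and srp values and the lowest ush value.

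Per kilobase of exon, zen was the most abundant of the 6 in OreR. The OreR levels per kilobase were 4909.7 ± 1201 normalized counts for zen and 2144 ± 249 for zen2. They were 219.5 ± 53.03 for srp, 145 ± 59.3 for ush, 36.1 ± 25.1 for pnr and 22.1 ± 21.4 for tup. The ranges of srp and ush overlapped, as did those of pnr and tup, and the other neighbours in this order did not. In obe2/Df srp came first, at 372.5 ± 26.3, followed by zen at 331 ± 249.6, ush at 202 ± 17.1, zen2 at 130.1 ± 116, tup at 31.6 ± 26.03 and pnr at 7.63 ± 8.33. There the ranges of each gene and the next overlapped, so neighbouring places were not resolved. The srp range (348.7 to 400.8) was above those of ush, zen2, tup and pnr. The ush range (183.1 to 216.2) was above those of tup and pnr.

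**Figure D3:**
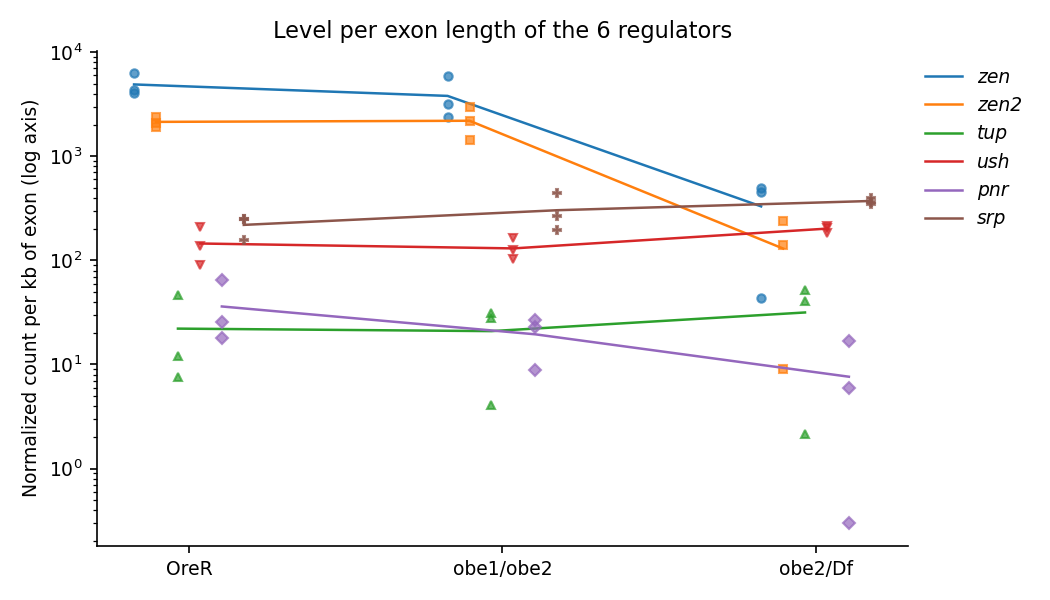
Normalized count per kilobase of exon (log axis) of the 6 genes in each library, with lines joining group means. In OreR zen and zen2 lie at or above 1918 and the other 4 genes at or below 250.2, and in obe2/Df the means of zen and zen2 (331 and 130.1) lie below that of srp (372.5), with ush (202) between them.

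The ratio of zen to zen2 within a library was compared after their values were seen. Per kilobase it was 2.61, 2.14 and 2.06 in OreR and 1.65, 1.97 and 1.46 in obe1/obe2. The obe2/Df libraries gave 4.8, 1.87 and 3.545. The obe1/obe2 ratios were all below the OreR ratios, and the obe2/Df ratios lay on both sides of them. The difference of mean log2 ratio from OreR was -0.42 in obe1/obe2 (exact permutation test, two-sided, p = 0.1, the smallest that 3 against 3 libraries allow). It was 0.49 in obe2/Df (exact p = 0.4), and 0.19 there without replicate 1. Separate ratios alone fix the p of 0.1, and the pair was compared after its values were seen, so no conclusion is drawn from these tests. The ratio of srp to pnr, the pair of GATA genes, is shown with no test, since the pair was taken up after srp was seen higher and pnr lower. It was 14.05, 3.86 and 6.15 per kilobase in OreR. The obe1/obe2 libraries gave 30.65, 19.3 and 7.34. The obe2/Df libraries gave 1233, 68.1 and 20.9, the highest of them resting on the 2 pnr reads of replicate 1.

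**Figure D4:**
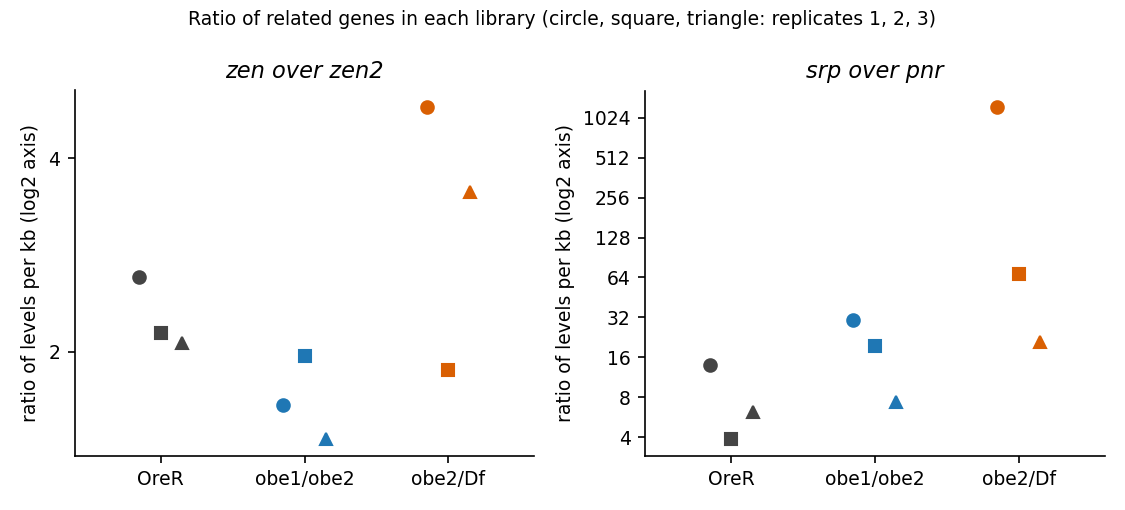
Ratio of levels per kilobase (log2 axis) of zen to zen2 and of srp to pnr in each library, by group, with marker shapes for replicates. The zen to zen2 ratio lies between 1.46 and 4.8 in all 9 libraries, and the srp to pnr ratio reaches 1233 in obe2/Df replicate 1.

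Most genes of the Dpp/BMP list, which was drawn by pathway and not by place of expression, were lower in obe2/Df. Of 14 genes of the Dpp/BMP list 10 were lower and 0 higher, where 29.5% of all tested genes were lower and 31% higher, with a median log2 fold change of -2.84 beside -0.01 over all tested genes. The ligand gene scw fell from 13205 ± 1753 to 487 ± 633 (-5.92 ± 0.99, adjusted p = 0.00152). The protease gene tld changed by -5.10 ± 1.29, tsg, whose product carries the ligand with Sog, by -5.00 ± 1.03, and the BMP-binding gene cv-2 by -4.38 ± 1.36. The ligand gene dpp, named here for its role, was at 1117 ± 220.1 in OreR and 136 ± 109.7 in obe2/Df (-3.90 ± 1.05, adjusted p = 0.0114). The 10 also include sog, brk, gbb and the receptor genes sax and put. Receptor and Smad genes had small changes, with put at -0.32 ± 0.06 (adjusted p = 0.00274) and tkv at -0.15 ± 0.06, Mad at -0.10 ± 0.06 and Med at 0.00 ± 0.14 not called. Without obe2/Df replicate 1, 9 of the 14 were lower, where 24.8% of all genes were lower and 25.4% higher, and the median was -1.71. These shares of all genes apply to each list below. In obe1/obe2 0 were lower and 1 higher, Mad (0.23, adjusted p = 0.028), with a median of -0.36 beside -0.07 over all genes.

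Of 8 tested genes in the list of other amnioserosa and dorsal ectoderm genes, 2 were lower in obe2/Df and 0 higher, a count near the 29.5% of all genes that were lower, with a median of -2.25. The T-box gene Doc1 fell from 693 ± 251 to 101 ± 85.5 (-3.86 ± 1.25, adjusted p = 0.0251). The gap gene Kr, which is also expressed in the amnioserosa, fell from 6129.7 ± 1911 to 527 ± 361 (-3.91 ± 0.71, adjusted p = 0.00217). Doc2 (-1.42 ± 1.10), Doc3 (-1.90 ± 0.75), the peptidase gene Ance (-2.77 ± 1.15) and the TNF-family ligand gene egr (-2.25 ± 0.94) did not pass. The zinc finger gene peb, also called hindsight, stood at 0.59 ± 0.32 and did not pass. Without obe2/Df replicate 1 the list had 2 lower and a median of -1.14, and in obe1/obe2 it had 0 called and a median of -0.64. The homeobox gene C15 was under the minimum for testing, at 18.8 ± 30.6 in OreR and 3.97 ± 3.53 in obe2/Df.

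**Figure D5:**
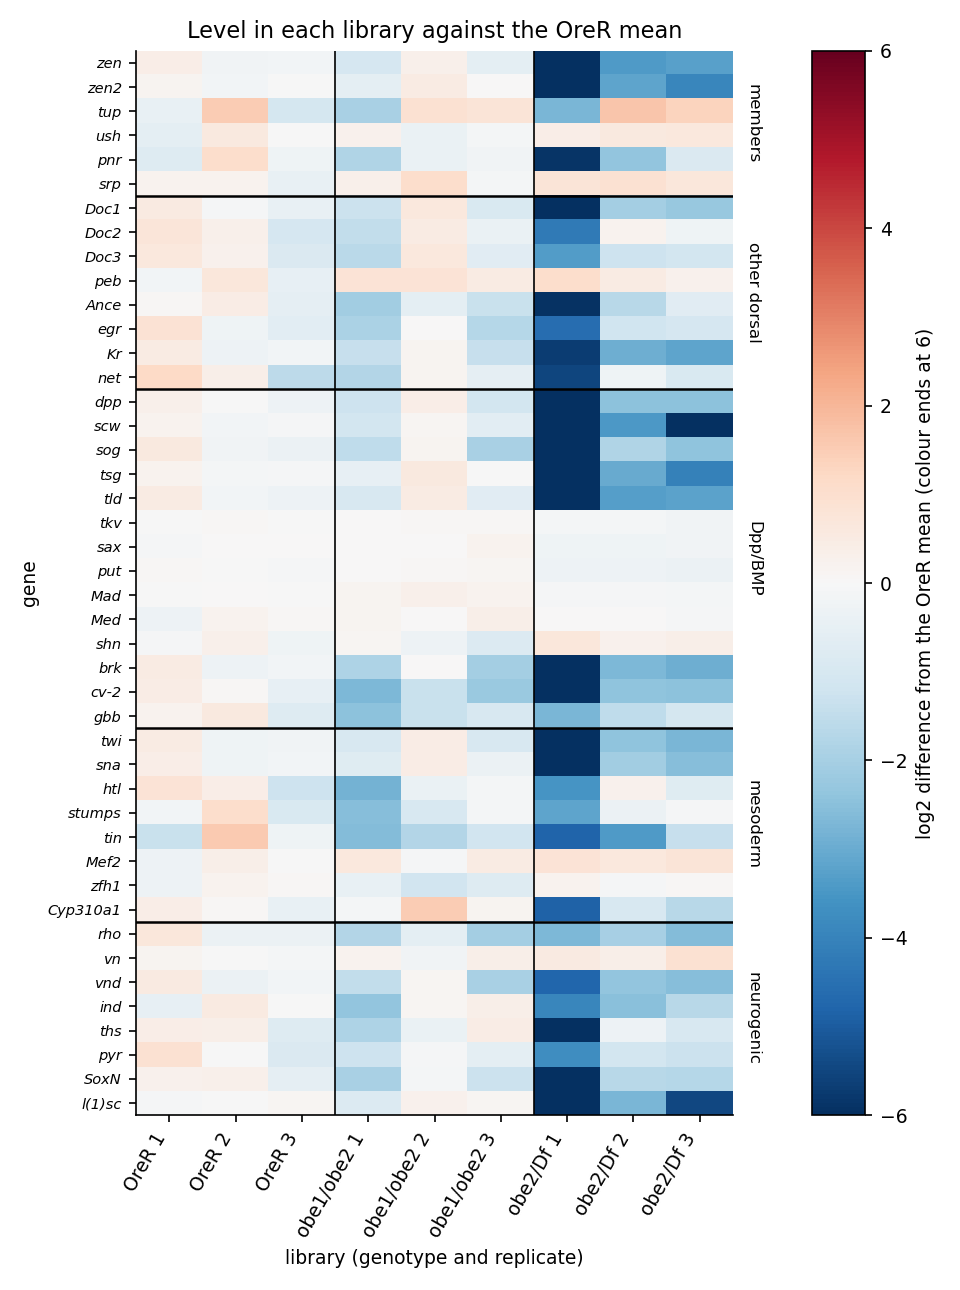
Log2 difference of each library from the OreR mean (colour, ends at 6) for the 6 genes and for tested genes of 4 lists, with genes in rows and libraries in columns. The mean of each block is lowest in obe2/Df replicate 1 (-4.17 for the Dpp/BMP list, -4.44 for other dorsal genes), where zen is at -6.76 and zen2 at -7.73.

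Maternally supplied inputs to zen differed less. Of 10 such genes 6 were lower and 1 higher in obe2/Df, with a median of -0.32, and the counts and median were the same without replicate 1. The higher was dl, which encodes Dorsal, the ventral repressor of zen, with a mean of 11427.5 ± 1211 in obe2/Df against 4531 ± 393 in OreR and 4201 ± 1982 in obe1/obe2 (change from OreR 1.33 ± 0.28, adjusted p = 0.00418). Among the lower genes Trl, encoding the GAGA factor, was at -0.76 ± 0.13, Stat92E at -0.44 ± 0.06 and Clamp at -0.43 ± 0.06. The activator gene zld, listed as vfl, was at 0.37 ± 0.19 and not called (adjusted p = 0.119). In obe1/obe2 2 were higher, zld (0.62, adjusted p = 0.0448) and retn (0.37, adjusted p = 0.0375), and 1 was lower, Trl (-0.57, adjusted p = 0.0157).

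Lists of genes related to the 6 split as well. Of 6 tested genes in the list of endoderm and blood genes around srp, 3 were lower and 0 higher in obe2/Df (median -3.65, and 3 lower with a median of -1.90 without replicate 1). They were tll (-5.29 ± 1.29), hkb (-4.73 ± 1.27) and byn (-4.10 ± 1.26), terminal and gut genes of the embryo's ends. In the same list fkh (-3.21 ± 1.42, adjusted p = 0.0787) did not pass, nor did the blood cell genes gcm (-1.71 ± 0.93) and lz (0.36 ± 0.49). Those 2 blood cell genes were low, at 61.1 ± 29.4 and 24.6 ± 14.7 in OreR. Of 7 tested GATA and LIM relatives and cofactors 2 were lower and 1 higher (median 0.01, and 2 and 1 with a median of 0.19 without replicate 1). The LIM-only gene Bx rose from 1901 ± 337 to 4199 ± 498 (1.15 ± 0.28, adjusted p = 0.00743). Chi, encoding the cofactor of LIM homeodomain proteins, was lower at -0.34 ± 0.08, as was GATAd at -0.32 ± 0.08. In obe1/obe2 the LIM homeobox gene ap rose from 36.7 ± 9.29 to 217 ± 52.3 (2.53, adjusted p = 0.008) and GATAd was lower (-0.33, adjusted p = 0.02). In the Antennapedia complex, 3 of 8 genes were lower in obe2/Df and 0 higher (median -1.93), and 2 lower with a median of -0.85 without replicate 1, against 29.5% and 24.8% of all genes lower. The 3 were ftz at -4.57 ± 1.04, lab at -1.75 ± 0.65 and the maternal zen relative bcd at -0.19 ± 0.07. Of these lab was low throughout, at 20.4 ± 19.1 in OreR and 4.16 ± 2.08 in obe2/Df (adjusted p = 0.0422).

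Lists of other territories and stages were mixed. In obe2/Df, 4 of 8 mesoderm genes were lower and 1 higher (median -1.91), with twi at -4.53 ± 1.37, sna at -4.19 ± 1.29, tin at -3.19 ± 0.97, Cyp310a1 at -2.48 ± 0.91 and the higher gene, Mef2, at 0.74 ± 0.20. Of 8 tested neurogenic ectoderm genes 6 were lower and 1 higher (median -2.65), with l(1)sc at -5.47 ± 1.10, SoxN at -3.50 ± 1.30 and vnd at -3.23 ± 0.71. All 6 early zygotic cellularization genes were lower (median -5.10), with nullo at -5.79 and bnk at -5.61 ± 1.10. Without obe2/Df replicate 1 these lists had 2 of 8, 4 of 9 and 6 of 6 tested genes lower, with medians of -0.77, -1.68 and -3.45, so that mesoderm was then at the 24.8% of all genes that were lower. In obe1/obe2, 1 of 8 mesoderm genes (zfh1, -0.79), 1 of 8 neurogenic genes (rho, -1.46) and 0 of 6 cellularization genes were lower, and 0 were higher. Of all tested genes 11.7% were lower there and 11% higher. The mean of the cellularization list relative to OreR was -7.16, -3.24 and -3.64 in obe2/Df replicates 1 to 3 and -1.16, 0.23 and -1.04 in obe1/obe2. In both mutant groups it was lowest in replicate 1, as zen, zen2, pnr and tup were. The part of these broader differences in the lower levels of zen, zen2 and pnr was not tested.

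Maternal and germ line lists had more genes higher than lower in obe2/Df, by counts of few genes. Of all tested genes 31% were higher and 29.5% lower there, and 25.4% and 24.8% without obe2/Df replicate 1. Of 7 maternal RNAs cleared at the transition 3 were higher and 1 lower (median 0.36), and 4 and 0 without replicate 1 (median 0.34), with stg at 0.94 ± 0.15 and png at 0.75 ± 0.22. Maternal and zygotic RNA of a gene, such as stg, cannot be told apart in these counts. Of 7 pole cell genes 4 were higher and 1 lower (median 0.64), and 3 and 1 without replicate 1 (median 0.61), with osk at 1.23 ± 0.34 and nos at -0.97 ± 0.14. In obe1/obe2, 2 of the 7 maternal RNAs were lower (Hsp83 at -0.91 and png at -0.85) and 0 higher. Of the pole cell genes 1 was lower (nos, -0.63) and 1 higher (gcl, 0.29) there, where 11.7% and 11% of all genes were. Follicle cell and yolk genes were near 0, with 1 of 7 passing the minimum. The 7 together summed to 9.55 to 27.9 normalized counts per library in OreR, 22.7 to 40.3 in obe1/obe2 and 33.4 to 46.2 in obe2/Df, and Cp38 was at 0 in every library. Their part in the higher srp level was not tested.

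The genes most like each of the 6 were sought among 7177 others with a mean of at least 50, by the root-mean-square difference of centred log2 profiles over the 9 libraries. Nearest to zen2 was tsg, at 0.101 log2 units, followed by CG43659 (0.157) and CG13713 (0.203). Nearest to zen were CG15128 (0.242), CG13868 (0.252) and CG34224 (0.276), with zen2 in place 18 at 0.485. Nearest to pnr were the Notch target E(spl)m7-HLH (0.56), drm (0.573) and the dorsal gene Ance (0.5798). For tup the nearest profiles were farther off, with sty at 0.729, Zasp52 at 0.734 and drl at 0.756. For ush they were Pde11 (0.185), CG43658 (0.189) and fus (0.191), and for srp CG5036 (0.199), CG5527 (0.217) and TrxT (0.254). Between srp and ush the difference was 0.558.

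The authors' deposited tables, which give a fold of group means against OreR, list zen at 0.0673 (adjusted p = 1.34e-12), zen2 at 0.0607 (adjusted p = 1.16e-13) and pnr at 0.211 (adjusted p = 0.000213) in obe2/Df. In the authors' deposited table srp is at a fold of 1.7 (adjusted p = 0.434), ush at 1.39 (adjusted p = 0.805) and tup at 1.43 (adjusted p = 1). For obe1/obe2 the authors' deposited table gives adjusted p = 1 for 5 of the genes and 0.471 for pnr. In that table pnr is at a fold of 0.54, with an unadjusted p from the authors' test of 0.0426. The rise of srp in obe2/Df is thus called here and not there.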

How the data were processed

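Per the labels' protocols, Trizol RNA of 9 samples, 3 per group, was made into TruSeq v2 libraries. The submitters' processing notes list STAR, Cuffdiff and Cufflinks 2.1.1 with build dm3 but give no roles, and the file names point to featureCounts and DESeq. For the annotation, strand setting and treatment of shared reads the sources used here name nothing. Values in the authors' matrix are a signal, reads per gene over 1 size factor for each library. Every value (100%) came back as whole reads within 0.001 of a read. Their deposited tables hold a fold (ratio of means), a p-value and an adjusted p-value. Replicate pairs differed by more than sampling noise (chi-square per degree of freedom 47.1 to 256). Separate crosses are not mentioned for replicates, so the p-values reflect only variation among these libraries, which may be technical.

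All 9 libraries entered 1 limma 3.58.1 fit (R 4.3.3) with a trended variance. It pools the spread of the 3 groups, so obe2/Df also sets the SE of obe1/obe2 against OreR. A trial on simulated data beforehand gave each gene the same dispersion in all groups, so it did not test this. Adding 1 before the log shrinks fold changes of low genes. Even so, the obe2/Df changes of zen, zen2 and pnr were larger in size here than with edgeR (-3.90, -4.07 and -2.25). Alternatives were other pseudocounts, filters, scalings and weights, the replicate number as a block, 6 libraries only, edgeR 4.0.16, DESeq2 1.42.0 and leaving out each library. Same-numbered libraries deviated together in 2 of 9 pairs (correlation over 0.1), both between the mutant groups. These were replicates 1 (0.521) and 2 (0.38), while obe1/obe2 replicate 2 with obe2/Df replicate 3 gave 0.376. Exon lengths are from Ensembl models of a later build, so no positions are given. In these, lncRNA:CR44133 overlaps 16.1% of srp exon bases and lncRNA:CR46258 7.81% of those of ush, so reads there are uncertain. Reads shared by zen and zen2 were not analysed here. The 6 genes, the 12 lists and the tests were chosen with earlier results of these data known. Besides the 6, the text names obe, up to 4 called genes of each list by size of change, examples without a call and the 3 nearest profiles. Outside that rule, dpp, sog, brk, gbb, sax, put, Mef2, the genes called in obe1/obe2 and the genes beside zen were named after their values were seen, and so was the choice of ratios. Figures used Python 3.11.15.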

Additional observations from a re-analysis of the deposited data

How the results depend on the processing

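The calls of zen and zen2 in obe2/Df, against OreR and against obe1/obe2, held under all 11 alternative settings and without any of the 9 libraries (zen -5.09 to -3.35 and zen2 -5.82 to -3.53 against OreR without 1 library, -4.64 to -2.90 and -5.80 to -3.51 against obe1/obe2). The count of the 6 genes called was 0 in obe1/obe2 throughout, 3 to 4 in obe2/Df (2 to 4 without 1 library) and 2 to 5 between the mutant groups (2 to 3 without 1 library), the 5 being with array weights. In obe2/Df pnr was not called with no filter (-3.04, adjusted p = 0.053), array weights (-2.46, adjusted p = 0.0538), the 6 libraries alone (-3.04, adjusted p = 0.0632) or edgeR (-2.25, adjusted p = 0.0874), and ranged from -4.12 to -1.62 without 1 library. The srp change was not called with quantile normalization (0.50, adjusted p = 0.154) and ranged from 0.57 to 0.90 without 1 library. The ush change passed with array weights (0.58, adjusted p = 0.0424) and ranged from 0.25 to 0.85. Between the mutant groups, array weights called ush (0.71), pnr (-2.21) and srp (0.84), leaving out obe2/Df replicate 3 called pnr (-3.31, adjusted p = 0.046), and the 6 libraries alone called ush (0.65, adjusted p = 0.036). Without 1 library ush ranged from 0.50 to 0.82, pnr from -3.31 to -0.81 and srp from 0.10 to 0.70. Uncalled changes near 0 changed sign: in obe1/obe2, zen2 was 0.031 with quantile normalization, 0.027 with array weights, 0.042 with edgeR and 0.036 with DESeq2, ush 0.057 with quantile normalization and tup 0.89 with array weights. Without 1 library zen2 ranged from -0.27 to 0.25, ush from -0.40 to 0.20 and tup from -0.63 to 0.84 there, and tup from -0.72 to 1.48 in obe2/Df and -0.77 to 1.57 between the mutant groups. The causes were not tested. The labels name no pairing of libraries by replicate number. The fit with the replicate number as a block changed no call of the 6 genes (zen -4.48 in obe2/Df, adjusted p = 0.00352). Its limma adjusted p in obe2/Df was 0.0153 for pnr and 0.0143 for srp. Array weights raised the count over all genes in obe1/obe2 from 1889 to 3451, and quantile normalization moved its split from 973 lower and 916 higher to 776 and 1129, and that between the mutant groups from 1630 lower and 2100 higher to 2389 and 1828. Leaving out obe2/Df replicate 1, chosen after seeing the data, took the mesoderm list from 5 to 3 called and the neurogenic list from 7 to 4. Low counts, with 2 to 34 reads in some libraries, limit pnr and tup. The lowest count of each (2 and 11 reads) was in obe2/Df replicate 1, the deepest library.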

Other observations

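In the order of genes along chromosome arm 3R of the reference annotation, srp and pnr lie near obe, with 59 and 63 genes of the matrix between each of them and obe. Of the 31 tested genes between obe and srp, 6 were lower and 11 higher in obe2/Df than in OreR, with a median log2 fold change of -0.06, where 29.5% of all tested genes were lower and 31% higher. The genes srp and pnr have 3 genes between them, among them the GATA gene GATAe, which was too low to test, with 11.7 ± 16.4 normalized counts in OreR and 3.68 ± 4.34 in obe2/Df, and 0 in each obe1/obe2 library. Whether Df removes any of these genes was not analysed here.

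The genes zen2 and zen have 1 gene of the matrix between them, CG34297, at a mean of 7.74 normalized counts in OreR and 0.856 in obe2/Df. On the other side of zen lie bcd, a maternal RNA at 20767 ± 778 in OreR and 18248 ± 1298 in obe2/Df, and Ama, which encodes a secreted immunoglobulin-domain protein, at 1758 ± 727 and 702 ± 607 (-2.88 ± 1.61, limma adjusted p = 0.148).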
